A study of Mus musculus with 9 samples.

Results

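The miR-191 and miR-425 cluster consists of 2 microRNA (miRNA) hairpins 384 nucleotides apart on mouse chromosome 9. Each gives a 5p and a 3p mature product (mmu-miR-191-5p with mmu-miR-191-3p, and mmu-miR-425-5p with mmu-miR-425-3p, written below without the species prefix). Whether they share a transcript in these cells was not measured. The members were chosen by name, as all 4 mature identifiers of the 2 hairpins, out of 1915 mouse miRNA identifiers in each table. All 4 were listed in each of the 9 libraries. Of all 1915 identifiers 479 were listed in at least 1 library and 260 in all 9.

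Small RNA was sequenced from the extracellular vesicles of an immortalized mouse line of podocytes, the epithelial cells whose foot processes cover the outside of the glomerular filter. Cells had differentiated for 10 days without interferon and then spent 48 h in 1 of 3 media. The groups are high glucose (30 mM glucose), mannitol (5.3 mM glucose plus 24.7 mM mannitol, which matches the osmolality of high glucose without added glucose) and normal glucose (5.3 mM glucose), with 3 libraries each. All groups come from the same line and from medium with fetal bovine serum, and their vesicles were precipitated from supernatant with a polymer reagent, which can also collect RNA carriers other than vesicles of these cells.

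A miRNA hairpin is cut into a short duplex whose strands are called the 5p and 3p arms. One arm is usually retained in an Argonaute protein as the guide, and bases 2 to 8 of it, the seed, pair with target messenger RNAs. The other arm is mostly degraded, and some hairpins yield appreciable amounts of both. The miR-191 and miR-425 hairpins lie close together and are conserved in mammals, and miR-191-5p is present in so many tissues and fluids that it often serves as a reference miRNA in quantitative PCR. Human miR-191 and miR-425 have been studied mainly in cancer, and human miR-425 is known to repress the natriuretic peptide gene NPPA.

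The sequences show what the counts below can and cannot tell apart. The 4 mature sequences from RefSeq (GRCm38.p6, all on the plus strand of chromosome 9) are written 5′ to 3′ with the seed in capitals.
miR-191-5p: cAACGGAAucccaaaagcagcug
miR-191-3p: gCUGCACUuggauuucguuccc
miR-425-5p: aAUGACACgaucacucccguuga
miR-425-3p: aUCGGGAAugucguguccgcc

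The seeds of the 4 arms all differ, so the cluster is a group by position and not a seed family. Among 1679 mature mouse miRNAs in the RefSeq table, the seed of miR-425-5p recurs in 1, miR-489-3p, which was listed at 0 in all 9 libraries. The other 3 seeds recur in none. No arm occurs whole in another hairpin of that table, so exact reads of these miRNAs can be assigned to their own hairpin, unlike those of many miRNA families. The arms are 23, 22, 23 and 21 nucleotides long in the order above, with a GC content of 52.2%, 54.5%, 47.8% and 61.9%. The first base is C in miR-191-5p, G in miR-191-3p and A in both miR-425 arms.

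The hairpins are shown whole, with both mature arms in capitals, because the results below turn on how their arms are balanced.
miR-191 hairpin: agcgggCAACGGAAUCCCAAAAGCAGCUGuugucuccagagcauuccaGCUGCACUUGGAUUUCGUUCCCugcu
miR-425 hairpin: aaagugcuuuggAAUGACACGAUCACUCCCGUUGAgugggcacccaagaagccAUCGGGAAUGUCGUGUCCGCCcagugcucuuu

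The miR-191 hairpin (74 nucleotides) occupies chr9:108568319-108568392 and the miR-425 hairpin (85 nucleotides) chr9:108568777-108568861, both in GRCm38, with 384 nucleotides between them. Folded in silico, the miR-191 hairpin had a minimum free energy of -35 kcal/mol with 17 base pairs between its mature arms. The miR-425 hairpin had -31.7 kcal/mol and 14 pairs. The annotations differ on the host. In RefSeq both hairpins lie inside the gene span of Dalrd3 (chr9:108567484-108572773, plus strand), which encodes a protein with an anticodon-binding domain. In GENCODE release 21 for mouse no Dalrd3 transcript starts before position 108569886, which is 1024 nucleotides past the miR-425 hairpin. There both hairpins lie in exon 1 of a single-exon transcript of the long non-coding RNA gene 4833445I07Rik on the same strand. In its other transcript, miR-191 lies in intron 1 and miR-425 lies outside. The RefSeq table used here gives the gene span without exons, so whether both hairpins lie in an intron of Dalrd3 was not determined.

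Total miRNA counts were 725211 to 2553690 per library. Levels are counts-per-million values (CPM), relative to all miRNA counts of a library, and the files hold no count from 1 to 9, so 10 reads, the smallest count listed, correspond to between 3.92 and 13.8 CPM. Intervals of single libraries cover counting error only. A list of 5 miR-30 miRNAs, a family that podocytes express at high levels, summed to between 149949 and 224982 CPM in the high glucose libraries, to between 106713 and 177083 CPM in those with mannitol, and to between 126420 and 140209 CPM in those of normal glucose. Most of that sum was miR-30a-5p (mean 116618 CPM over all libraries) and miR-30d-5p (36579 CPM). The means of miR-30e-5p, miR-30c-5p and miR-30b-5p were 1028, 838 and 80.4 CPM. A list of 7 blood, immune and liver miRNAs summed to between 16469 and 29940 CPM in the high glucose libraries, 19120 and 44081 CPM in those with mannitol, and 21288 and 38921 CPM in those of normal glucose. In the sums of this last list miR-486a-5p and miR-486b-5p are both included. They had the same mean (5879 CPM over the 9 libraries each) and the same SD, so that signal enters under both names. In the same list miR-144-3p was listed in 1 library, miR-223-3p in 5 and miR-150-5p in 8, and no member was at 0 in every library. The protein markers that define podocytes are not measured by this assay. The part of RNA from serum or other carriers in the values below was not tested.

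The leading product of the cluster was miR-191-5p. It stood at 5405, 4991 and 4167 CPM in the high glucose libraries. With mannitol it stood at 5544, 4244 and 4734 CPM, and in normal glucose at 5862, 4687 and 5038 CPM. The groups overlapped throughout, and the highest of the 9 libraries was only 1.41 times the lowest. High glucose averaged 4855 ± 630 CPM, mannitol 4841 ± 657 CPM and normal glucose 5195 ± 603 CPM (SD, n = 3 each). In bulk vesicle RNA, fewer vesicles that carry a miRNA and less of it per vesicle cannot be told apart. By mean level over all libraries it was number 42 of 479 listed miRNAs, between miR-125b-5p (5206 ± 1822 CPM) and miR-27a-3p (4918 ± 1149 CPM; SD, n = 9). These neighbours are the next by mean level, so close means follow from their choice, and within their spread the order is not settled.

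The hairpin's other arm, miR-191-3p, was the rarest member. It had 23, 16 and 40 reads in the high glucose libraries, 40, 25 and 76 with mannitol, and 63, 25 and 33 in normal glucose. In CPM, high glucose had 31.7, 12.5 and 15.7, mannitol 30.1, 15.7 and 33.5, and normal glucose 40.9, 23.0 and 29.8. Replicates 2 and 3 of high glucose and replicate 2 of mannitol were the 3 lowest libraries, and the groups overlapped. High glucose averaged 19.97 ± 10.3 CPM, mannitol 26.4 ± 9.42 CPM and normal glucose 31.2 ± 9.05 CPM (SD, n = 3 each). It was number 240 of 479 by mean level over all libraries, between miR-3099-3p (26.1 ± 11.1 CPM) and miR-3965 (25.2 ± 27.6 CPM; SD, n = 9). At 16 reads in high glucose replicate 2, the exact 95% interval ran from 7.16 to 20.4 CPM.

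From the second hairpin, miR-425-5p stood at 137, 130.0 and 164 CPM in high glucose. It stood at 139.9, 127 and 172 CPM with mannitol, and at 166, 75.4 and 230.3 CPM in normal glucose. Normal glucose held both the lowest and the highest library, so that its SD was the widest. High glucose averaged 144 ± 18.3 CPM, mannitol 146 ± 23.0 CPM and normal glucose 157 ± 77.8 CPM (SD, n = 3 each). It was number 143 of 479, between miR-149-5p (155 ± 64.6 CPM) and miR-200b-5p (146 ± 48.8 CPM; SD, n = 9).

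The opposite arm, miR-425-3p, stood at 92.4, 75.2 and 113 CPM in high glucose, at 100.04, 105 and 133 CPM with mannitol, and at 116, 30.4 and 81.3 CPM in normal glucose. The value of 30.4 CPM in normal glucose replicate 2 rests on 33 reads and was the lowest of the 9 libraries, as it was for miR-425-5p. High glucose averaged 93.6 ± 19.0 CPM, mannitol 113 ± 18.0 CPM and normal glucose 75.8 ± 42.9 CPM (SD, n = 3 each). It was number 166 of 479, between miR-3081-3p (95.3 ± 21.8 CPM) and miR-674-5p (88.6 ± 22.1 CPM; SD, n = 9). The neighbours of each member were picked in the same way, and within their spread their order is not settled either. Within each library the order was the same, with miR-191-5p first, then miR-425-5p, miR-425-3p and miR-191-3p.

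**Figure D1:**
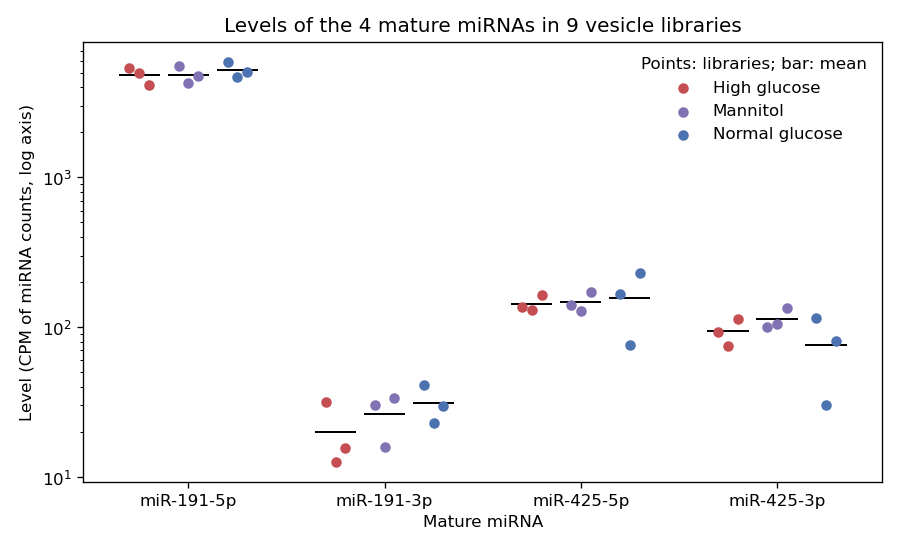
Level in CPM (log axis) of the 4 mature miRNAs in each library, by medium; points are libraries and bars are means of 3. The points of miR-191-5p lie between 4167 and 5862 CPM in every medium, whereas the miR-425 arms are widest in normal glucose, where replicate 2 is low.

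Summed over its 4 members, the cluster took 0.567%, 0.521% and 0.446% of miRNA counts in high glucose. It took 0.581%, 0.449% and 0.507% with mannitol and 0.618%, 0.482% and 0.538% in normal glucose. Of the cluster's reads over all libraries, 94.6% were miR-191-5p, so the sum followed that arm. The group means were 0.511% ± 0.0608 in high glucose, 0.513% ± 0.0663 with mannitol and 0.546% ± 0.0688 in normal glucose (SD, n = 3 each), and the libraries overlapped.

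The first comparison, of high with normal glucose, asks whether the treatment as a whole altered the cluster. No member passed the test. The edgeR quasi-likelihood fit put the log2 fold change of miR-191-5p at -0.01 (95% interval -0.53 to 0.52, SE 0.25, adjusted p = 0.995), which in linear terms allows 0.693 to 1.43 times the normal glucose level. Its absolute log2 fold change was number 6 from the smallest among 361 tested miRNAs. For miR-425-5p the log2 fold change was 0.02 (SE 0.35, interval -0.73 to 0.76), and its sign turned when only the scaling changed. The rarer arms had wider intervals. miR-191-3p had -0.60 (SE 0.55, interval -1.78 to 0.57) and was higher in 2 of 9 pairs of libraries. Its value was -0.99 without high glucose replicate 1, -0.38 without high glucose replicate 2 and -0.38 without normal glucose replicate 1. miR-425-3p had 0.44 (SE 0.40, interval -0.41 to 1.28) and was higher in 5 of 9 pairs. Without normal glucose replicate 1 the value of miR-425-3p was 0.88, and without normal glucose replicate 2 it was 0.09. The libraries of the groups overlapped for all 4 members, while 9.42% of all tested miRNAs did not overlap. None of the 361 miRNAs passed an adjusted p of 0.05 in edgeR (0%), and DESeq2 and limma-voom also called 0. An unadjusted p under 0.05 was found for 10 (2.77%) by edgeR, 15 by DESeq2 and 6 by limma-voom.

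The second comparison sets high glucose against mannitol, where osmolality is matched. Again no member passed the test. The log2 fold change was 0.16 for miR-191-5p (SE 0.25, interval -0.36 to 0.69, adjusted p by edgeR = 0.948) and 0.13 for miR-425-5p (SE 0.35, interval -0.61 to 0.87). Scaled to the library constant of the deposited normalized column, both turned sign, to -0.43 and -0.41, with an overall median over the 361 miRNAs of -0.59. Relative to that median they stayed higher, by 0.17 and 0.18, against 0.20 and 0.17 with TMM scaling, and 4 of 9 pairs of libraries were higher in high glucose for each by CPM. miR-191-3p had -0.29 (SE 0.55, interval -1.46 to 0.88) and miR-425-3p -0.13 (SE 0.39, interval -0.96 to 0.71), each higher in 2 of 9 pairs. With the library constant these were -0.996 and -0.66. With a library left out miR-191-3p lay between -0.73 (without high glucose replicate 1) and -0.05 (without mannitol replicate 3), and miR-425-3p between -0.31 (without high glucose replicate 3) and 0.02 (without mannitol replicate 3). The libraries overlapped for all 4 members, where 10.2% of tested miRNAs did not. No miRNA passed in edgeR (0%) or limma-voom, while DESeq2 called 1, miR-182-5p, which is not a member and is named after its value was seen. An unadjusted p under 0.05 was found for 19 miRNAs (5.26%) by edgeR, 26 by DESeq2 and 29 by limma-voom.

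The third comparison, mannitol against normal glucose, differs in osmolality at the same glucose. No member passed the test. The highest log2 fold change belonged to miR-425-3p, at 0.56 (SE 0.39, interval -0.28 to 1.40, adjusted p by edgeR = 0.9996). It was higher with mannitol in 7 of 9 pairs of libraries. Without normal glucose replicate 2, at 30.4 CPM, the log2 fold change of miR-425-3p was 0.25, and without mannitol replicate 3 it was 0.41. Without normal glucose replicate 1 it was 1.01. For miR-191-5p the log2 fold change was -0.17 (SE 0.25, interval -0.69 to 0.35), for miR-425-5p -0.11 (SE 0.35, interval -0.85 to 0.63) and for miR-191-3p -0.31 (SE 0.54, interval -1.46 to 0.85). With a library left out that of miR-191-3p lay between -0.55 (without mannitol replicate 3) and -0.01 (without mannitol replicate 2). Scaled to the library constant, miR-425-3p had 0.95 and the other 3, in the order just given, became 0.31, 0.35 and 0.19, with the median over the 361 miRNAs at 0.50, so that relative to the median those 3 were still lower. No member's libraries separated, where 3.32% of tested miRNAs did. No miRNA passed in edgeR (0%), DESeq2 or limma-voom, and an unadjusted p under 0.05 was found for 5 (1.39%), 7 and 3 in that order of tools. The comparisons share libraries and are not independent of each other. The labels do not state whether replicate libraries are separate cultures, so that the p-values reflect the spread between these libraries, which may be technical.

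**Figure D2:**
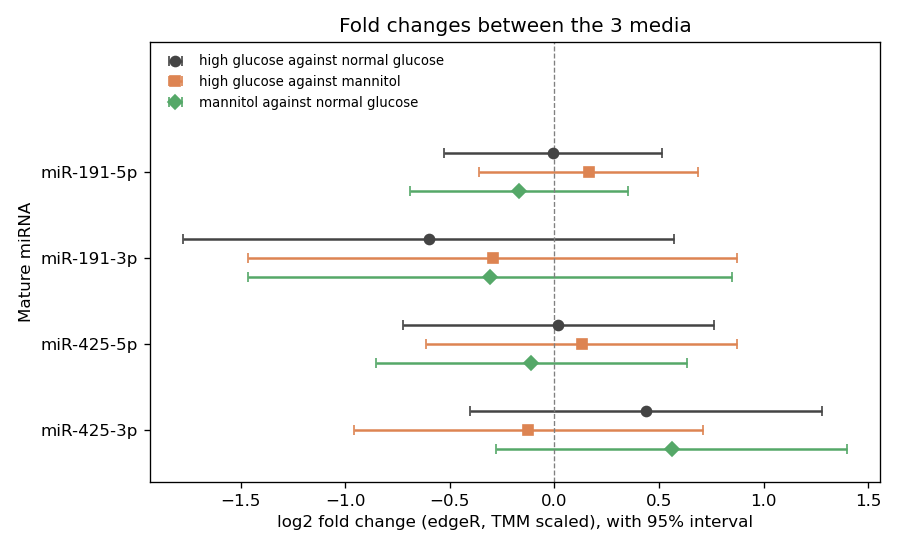
The log2 fold change (edgeR, TMM scaling) of each member in the 3 comparisons, with 95% intervals. Each interval crosses 0; those of miR-191-5p are the narrowest and those of miR-191-3p the widest.

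The 2 hairpins were unlike in how their arms were represented, a comparison within a library that no scaling affects. In the miR-191 hairpin nearly all reads came from the 5p arm, with 170, 398 and 266 reads of 5p per read of 3p in the high glucose libraries. The ratios were 184, 269.7 and 141 with mannitol and 143, 204 and 169 in normal glucose. High glucose was higher in 8 of 9 pairs against normal glucose and in 6 of 9 against mannitol, and the groups overlapped. The 5p share was between 99.3% and 99.7% of the hairpin's reads in every library, and the ratio turns on 16 to 76 reads of 3p.

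In the miR-425 hairpin both arms were well represented, with 1.48, 1.73 and 1.45 reads of 5p per read of 3p in high glucose. The ratios were 1.40, 1.21 and 1.29 with mannitol and 1.43, 2.48 and 2.83 in normal glucose. All 3 high glucose libraries lay above all 3 mannitol libraries, and all 3 mannitol libraries lay below all 3 normal glucose libraries. The separations were small, since high glucose replicate 3 at 1.45 lay beside mannitol replicate 1 at 1.40, which in turn lay beside normal glucose replicate 1 at 1.43. Among 41 hairpins with both arms listed in all 9 libraries, 14.6% had ratios that did not overlap between high glucose and mannitol, and 9.76% between mannitol and normal glucose. As shares, the 5p arm made up 60.7% ± 2.27 in high glucose, 56.4% ± 1.79 with mannitol and 68.0% ± 8.03 in normal glucose (SD, n = 3 each). In normal glucose the replicates themselves differed beyond counting error, with exact 95% intervals of 54.1% to 63.6% in replicate 1 and 68.9% to 78.5% in replicate 3. Normal glucose replicate 2 had 71.3% (interval 62.1% to 79.4%, from 82 and 33 reads).

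Among those 41 hairpins miR-191 was number 4 by its ratio of 5p to 3p, with a mean log2 ratio of 7.68, and miR-425 was number 15, with 0.71. The median size of the imbalance between arms was 3.31 on the log2 scale, in either direction, so that miR-191 lay above the median and miR-425 well below it, as number 37 of 41. Of the 41 hairpins 18 had more 5p than 3p reads on average. The arm ratios of both hairpins varied between libraries about as much as those of others, with an SD of the log2 ratio of 0.49 for miR-191 and 0.43 for miR-425 against a median SD of 0.52.

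**Figure D3:**
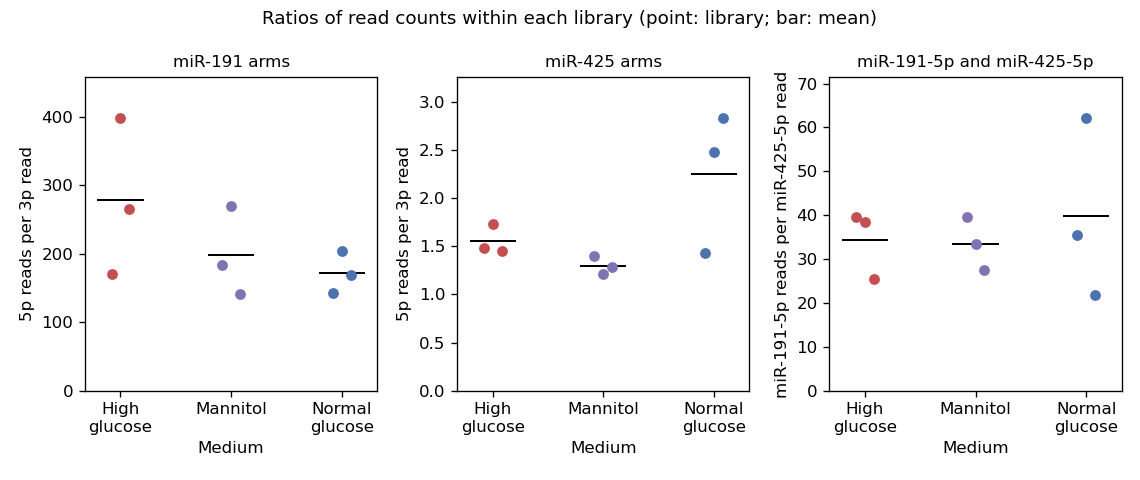
Read ratios within each library by medium, on linear axes that start at 0; points are libraries and bars are means of 3. Ratios of the miR-191 arms reach from 141 to 398, those of the miR-425 arms from 1.21 to 2.83, and miR-191-5p exceeds miR-425-5p by 21.9 to 62.1 times.

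Between the hairpins, miR-191-5p exceeded miR-425-5p 39.6, 38.4 and 25.3 times in high glucose. The ratio was 39.6, 33.4 and 27.5 with mannitol and 35.4, 62.1 and 21.9 in normal glucose. The groups overlapped, and normal glucose held both extremes. Between the 3p arms the order was the other way round, with 0.343, 0.167 and 0.138 reads of miR-191-3p per read of miR-425-3p in high glucose, 0.301, 0.150 and 0.251 with mannitol, and 0.354, 0.758 and 0.367 in normal glucose. All high glucose and mannitol libraries lay below all of normal glucose, though replicate 1 of high glucose (0.343) was close to replicate 1 of normal glucose (0.354). High glucose and mannitol overlapped. Over all 33670 pairs of miRNAs listed in every library, 9.02% of ratios did not overlap between high and normal glucose, 10.5% between high glucose and mannitol, and 4.95% between mannitol and normal glucose. The ratio of the 3p arms was singled out after its values were seen and rests on 16 to 76 reads of miR-191-3p. Its highest value, 0.758 in normal glucose replicate 2, came from 25 reads of miR-191-3p and 33 of miR-425-3p.

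For the main arms of the neighbouring hairpins no correlation of levels passed. Over the 9 libraries log2(CPM + 1) of miR-191-5p and miR-425-5p had a Pearson's r of 0.17 (exact permutation p = 0.693, adjusted p = 0.832) and a Spearman's rho of 0.33 (exact permutation p = 0.385, adjusted p = 0.462), two-sided and adjusted over 6 pairs of members. Without the libraries farthest from the median of miR-191-5p, high glucose replicate 3 and mannitol replicate 2, r was 0.30. The sign turned with TMM effective library sizes (r = -0.29). In deviations from the group means, where libraries are permuted within their medium, r was 0.18 (exact permutation p = 0.75).

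The arms of each hairpin had higher coefficients, which did not pass either. The miR-191 arms had r = 0.70 (exact permutation p = 0.0420, adjusted p = 0.167) and rho = 0.67 (exact permutation p = 0.0589, adjusted p = 0.267). Without high glucose replicate 3 and mannitol replicate 2, r was 0.46, and with TMM effective library sizes it was 0.12. The miR-425 arms had r = 0.74 (exact permutation p = 0.0556, adjusted p = 0.167) and rho = 0.53 (exact permutation p = 0.147, adjusted p = 0.267). By CPM that coefficient depended on single libraries, since r was 0.06 without normal glucose replicate 2 and 0.96 without normal glucose replicate 3. Without both of those libraries, the farthest from the median of miR-425-5p, r was 0.79. The other 3 pairs, each of 1 miR-191 arm and 1 miR-425 arm, had r between 0.08 and 0.31. By rank the contrast with the miR-425 arms was small for miR-191-3p, with rho = 0.50 against miR-425-5p and 0.50 against miR-425-3p. For miR-191-5p with miR-425-3p rho was 0.02. In deviations from the group means r was 0.86 for the miR-425 arms (exact permutation p = 0.134, adjusted p = 0.278). For the miR-191 arms it was 0.71 there (exact permutation p = 0.0926, adjusted p = 0.278).

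By the deposited normalized column in place of CPM, r was 0.83 for miR-191-5p with miR-425-5p, 0.91 for the miR-425 arms and 0.75 for the miR-191 arms (exact permutation, adjusted p = 0.0119, 0.00339 and 0.0326). The deposited values entered as log2 without the added 1. That column divides by a constant which was between 10.3 and 29.2 times the miRNA total of a library, so that this factor enters all members of a library alike.

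**Figure D4:**
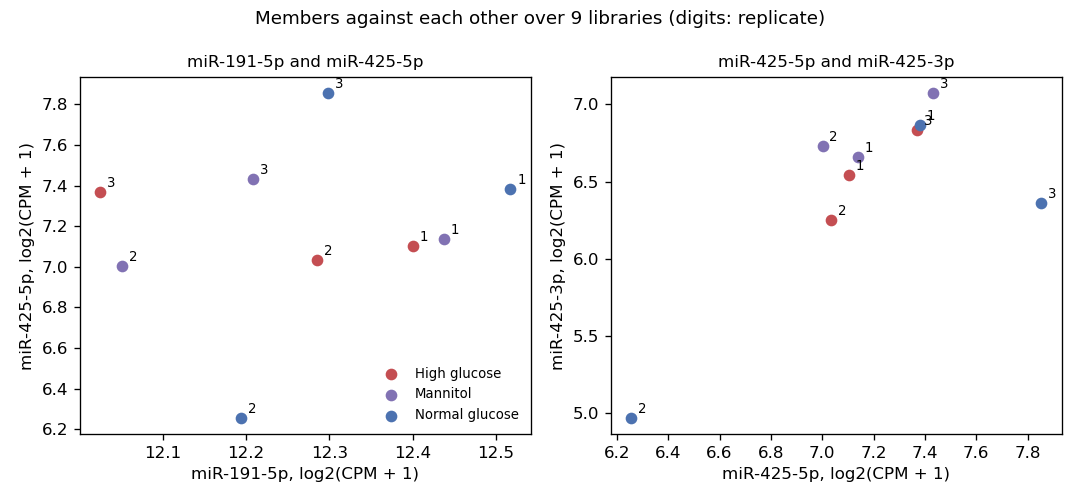
Levels as log2(CPM + 1) of miR-191-5p against miR-425-5p (left) and of miR-425-5p against miR-425-3p (right) in the 9 libraries, coloured by medium, with replicate numbers. On the left the libraries scatter with r = 0.17; on the right r is 0.74 and normal glucose replicate 2 lies apart at the lower left.

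The miRNAs whose levels over the 9 libraries were most like miR-191-5p were miR-3099-3p (Pearson's r 0.90), miR-93-3p (0.80), miR-27a-5p (0.76), miR-30c-5p (0.74) and miR-134-5p (0.74), out of 259 listed in all libraries. Its own 3p arm was number 12 and miR-425-5p number 133. Most like miR-425-5p were miR-30b-5p (0.92), miR-23a-3p (0.89), miR-1983 (0.86), miR-130a-3p (0.81) and miR-669a-3p (0.80), with its own 3p arm at number 12 and miR-191-5p at number 126. With TMM effective library sizes those 5 kept the same order for miR-425-5p. The list of miR-191-5p did not hold in that way. There r was 0.69 for miR-3099-3p, 0.52 for miR-93-3p, 0.49 for miR-27a-5p, 0.68 for miR-30c-5p and -0.07 for miR-134-5p. Its own 3p arm moved to number 106 (r = 0.12) and miR-425-5p to number 224 (r = -0.29). These values describe 9 libraries that share their total as denominator, and no test was made of them.

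As a description, miR-191-5p was among the steadiest miRNAs of these libraries. Its SD of log2(CPM + 1) over the 9 libraries was 0.17, number 3 from the lowest of the 260 miRNAs listed in all libraries, whose median SD was 0.45. The lowest was that of miR-30e-3p (0.15). Among 76 miRNAs with a mean of at least 1000 CPM miR-191-5p had the lowest SD (0.167), where the median was 0.35 and miR-378a-3p was next at 0.175. By SD around the group means miR-191-5p was number 6 of 260 (0.184). There miR-182-5p (0.157) and miR-99a-5p (0.176), both above 1000 CPM and named for these values, were lower. With a library left out, the place of miR-191-5p by SD over the remaining libraries lay between number 1 (without high glucose replicate 3) and number 10 (without mannitol replicate 3). It was number 2 with TMM effective library sizes and number 13 by the deposited normalized column (log2 without the added 1), where its SD was 0.42. The other members had larger SDs, at number 124 for miR-425-5p (SD 0.43), number 183 for miR-191-3p (0.57) and number 213 for miR-425-3p (0.62). Without normal glucose replicate 2 the SDs of miR-425-5p and miR-425-3p were 0.28 and 0.27, at number 51 and number 40.

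**Figure D5:**
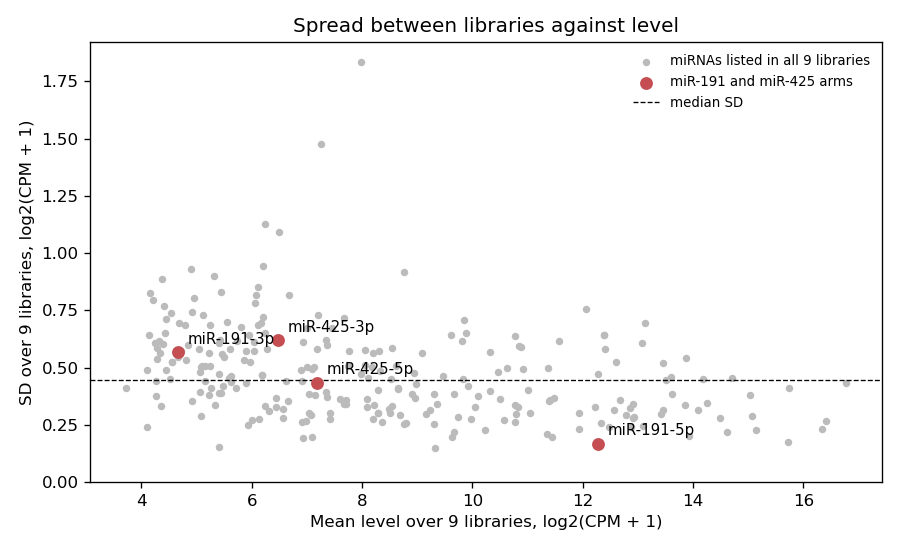
SD over the 9 libraries against mean level, both as log2(CPM + 1), for the 260 miRNAs listed in every library; the dashed line is the median SD, 0.45. At 0.17 miR-191-5p lies near the lower edge, and its 3 cluster partners lie around or above the median.

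miR-191-5p belongs to a list of 12 miRNAs in use as reference miRNAs for quantitative PCR, and all 12 were tested. Its SD was the lowest of the 12. miR-103-3p had 0.23 (number 13 of 260) and miR-361-5p 0.25 (number 22), while miR-16-5p had 0.50 (number 158) and miR-423-5p 0.61 (number 204). None of the 12 passed in edgeR in any comparison. In high against normal glucose 5 were higher (46.5% of all tested miRNAs were) and 7 lower, with a median log2 fold change of -0.09 beside -0.04 over all tested miRNAs. In high glucose against mannitol 7 were higher and 5 lower (median 0.10, beside -0.04, with 46.5% of all higher). In mannitol against normal glucose 2 were higher and 10 lower (median -0.17, beside 0.01, with 52.1% of all higher). The most abundant of the list were miR-423-5p, with log2 fold changes of -0.57, -0.85 and 0.29 in that order of comparisons, and miR-320-3p, with -0.29, -0.12 and -0.18.

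A further list held 19 miRNAs chosen for a hairpin inside a protein-coding gene, of which 17 were tested. In GENCODE miR-16-5p also has a hairpin in the long non-coding RNA gene Dleu2, and let-7f-5p one in 6720427I07Rik, so their counts cannot be assigned to the protein-coding host. Again none passed in edgeR in any comparison. In high against normal glucose 11 were higher and 6 lower (median 0.14), in high glucose against mannitol 14 were higher and 3 lower (median 0.32), and in mannitol against normal glucose 5 were higher and 12 lower (median -0.20), beside the medians and shares over all tested miRNAs given above. The most abundant were miR-378a-3p, at 0.17, 0.14 and 0.03 in the same order, and miR-25-3p, whose hairpin lies in Mcm7, at -0.03, -0.03 and 0.00. The lists share miR-16-5p, miR-26a-5p, miR-93-5p, miR-103-3p, miR-186-5p and miR-361-5p.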

How the data were processed

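Small RNA of podocyte vesicles was sequenced in 9 libraries, 3 per medium, grouped by the treatment label. The first title of a group carries no number and was taken as replicate 1. The counts per mature miRNA were used as deposited by the authors, and bcl2fastq, BWA and build mm10 were used per the submitters' processing notes, with versions and settings not given in the sources used here. The deposited normalized values were RPM, the count divided by 1 constant per library whose meaning is not given there. Depth was 725211 to 2553690 miRNA counts per library, and intervals of single libraries are exact (Clopper-Pearson, 95%).

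Fold changes were estimated with edgeR 4.0.16 under R 4.3.3 (TMM, expression filter by group, robust quasi-likelihood test, all 9 libraries in a joint fit), checked on simulated data. Benjamini-Hochberg adjustment ran over 361 miRNAs, with a threshold of 0.05. DESeq2 1.42.0 and limma-voom (limma 3.58.1) were alternatives, as were other scalings, no filter, listed zeros set to 9 reads, a replicate block and each library left out. Some alternatives were added after seeing the data: the deposited column for correlations, TMM sizes and the deposited column for SDs, and libraries left out of correlations, SDs and levels. Correlations and SDs used log2(CPM + 1), or log2 without the added 1 for the deposited column. Correlations were tested with exact permutation of libraries. Hairpins were folded with ViennaRNA 2.7.2, and sequences came from RefSeq, where all 4 members matched.

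Pairs of libraries of a group differed by a chi-square of 88.1 to 765 per degree of freedom, so none looked like a repeat deposit. All members were named, as were the members of the reference and host-gene lists past the threshold or otherwise its most abundant pair, the 5 miRNAs most like each main arm, and neighbours in level. The podocyte and the blood, immune and liver lists are given as sums, with members named for how they enter these sums. Of the lists, members were also named for their SDs after these were seen. Members and lists were chosen with earlier results of these data known.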

Additional observations from a re-analysis of the deposited data

How the results depend on the processing

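No alternative brought a member past the threshold, and the members' adjusted p by edgeR, DESeq2 or limma-voom ranged from 0.637 to 1 over all of them. Several log2 fold changes near 0 changed sign. In high against normal glucose miR-191-5p had 0.014 with listed zeros set to 9 reads and -0.10 to 0.10 with a library left out. There miR-425-5p had -0.013 with DESeq2 size factors, -0.13 with total counts, -0.062 with the library constant, -0.013 with DESeq2, -0.0016 with only the 2 groups and -0.29 to 0.30 with a library left out. In high glucose against mannitol the library constant gave -0.43 for miR-191-5p and -0.41 for miR-425-5p, total counts gave -0.025 for miR-425-5p, and miR-425-3p had -0.31 to 0.022 with a library left out. In mannitol against normal glucose the library constant gave 0.31 for miR-191-5p, 0.19 for miR-191-3p and 0.35 for miR-425-5p, and miR-425-5p had -0.37 to 0.24 with a library left out. Ratios of mean levels by the deposited column were 0.743 (miR-191-5p), 0.499 (miR-191-3p, 0.755 by CPM), 0.749 (miR-425-5p) and 0.633 (miR-425-3p) in high glucose against mannitol. In mannitol against normal glucose they were 1.24 (miR-191-5p), 1.14 (miR-191-3p, 0.846 by CPM) and 1.94 (miR-425-3p, 1.49 by CPM).

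By that constant 17.2% of all tested miRNAs had a positive fold change in high glucose against mannitol, against 46.5% with TMM, and 89.8% against 52.1% in mannitol against normal glucose, so direction there follows the scaling. By total counts they were 34.6% and 59.0%. Pearson's r turned with TMM library sizes to -0.29 (miR-191-5p with miR-425-5p), -0.30 (miR-191-5p with miR-425-3p), -0.020 (miR-191-3p with miR-425-5p) and -0.057 (both 3p arms), and passed with the deposited column at 0.75 (miR-191 arms), 0.83 (both 5p arms), 0.86 (miR-191-5p with miR-425-3p) and 0.91 (miR-425 arms). For miR-191-5p with miR-425-3p it was -0.19 to 0.24 with a library left out.

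Without the filter edgeR called 2 miRNAs in high against normal glucose (miR-9-5p and miR-6538), 3 in high glucose against mannitol (miR-1a-3p, miR-19b-3p and miR-6538) and 1 in mannitol against normal glucose (miR-1a-3p). In high glucose against mannitol DESeq2 called 1, and edgeR called 0 to 1 with a library left out, the 1 being miR-19b-3p without mannitol replicate 2. None is a member, and the cause was not tested. With the title numbers as a replicate block no member passed, with -0.01, 0.16 and -0.16 for miR-191-5p in the 3 comparisons of the report in turn, 0.48, -0.15 and 0.63 for miR-425-3p, and 0 miRNAs called in each. The block moved the miRNAs at an unadjusted p under 0.05 to 19, 52 and 17, from 10, 19 and 5. The labels do not say that a number marks a shared culture or day, and not every same-number pair of libraries had correlated deviations (-0.058 to 0.521, against -0.451 to 0.199 for other numbers). As a hint from the data and not from the design, 6 of 9 libraries correlated best with their own number in both other groups. With 16 to 76 reads of miR-191-3p, depth limits what can be said of that arm.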
